A study of Mus musculus with 67 samples.

Results

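Il15, Spon1, Tafa2, Fmn1, Ptprn2, Bcat2, Kif5c and Rab6b are 8 genes whose transcripts differed widely between mouse strains of high, normal and low blood pressure in heart. The genes were chosen by the size of their differences between strains in these same heart arrays, so their heart values are given as a description with no test, and tests are given only in aorta, kidney and liver. Every probe set carrying 1 of the 8 symbols in the platform annotation was taken, which gave 15 of the 38385 probe sets, for 8 of 19147 named genes. Probe sets are called by the GenBank or RefSeq transcript that the annotation pairs with them. Il15, Tafa2, Fmn1 and Bcat2 have 1 each, Kif5c and Rab6b 2, Ptprn2 3 and Spon1 4.

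The mice were males of 12 weeks from 3 inbred strains, with no transgene or treatment. BPH/2J (BPH) is hypertensive, with a stated systolic pressure of 142 ± 5 mmHg, BPN/3J (BPN) is normotensive at 94 ± 6 mmHg, and BPL/1J (BPL) is hypotensive at 69 ± 1.7 mmHg. The kind of error was not stated. Heart and liver had 5 arrays per strain, kidney had 5 BPH, 5 BPN and 4 BPL, and aorta had 9 BPH, 5 BPN and 9 BPL, which made 67 arrays. The design gives 5 mice per strain, but which mouse each array came from was not stated, so spread and p-values describe arrays and may be partly technical. A strain comparison sets whole inbred genomes against each other, and strain and pressure cannot be told apart in it.

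Values are log2 of the deposited intensity, normalised with RMA, and ± marks the SD of a level or the standard error of a difference. Levels are compared only between strains of 1 tissue, because the intensity distributions of the tissues differ. Detection calls were not given. A strain mean is called dim here when the lower quartile of at least 1 array of the same tissue exceeds it (highest lower quartile 3.32 in heart, 3.03 in aorta, 3.64 in kidney and 2.76 in liver), and no fold is given against it. For cell type markers the mean over all arrays of the tissue was used instead, so a marker low in a single strain may not count as dim. Arrays of a group correlated at 0.986 to 0.997 and no pair was identical. The mean of 6 cardiomyocyte markers lay between 13.55 and 13.67 in all heart arrays, and 0 of the 6 were called in BPH or BPL against BPN. Summed linear intensity of 5 adipocyte markers varied more, at 85.1 to 666 in BPH, 149 to 934 in BPN and 201 to 2816 in BPL, with 0 called. That of 6 atrial markers was 10959 to 19565, 17047 to 20383 and 6357 to 19399, with 1 called higher and 1 lower in BPH and 0 in BPL. The part of these 2 lists in the heart values was not tested. The mean of 5 T and B cell markers was 6.66 in BPH heart array 5 and at most 5.27 in the other heart arrays. Without that array the BPH minus BPN difference was -3.29 for Il15, 4.04 for Tafa2, 1.91 for Kif5c NM_008449 and -1.90 for Bcat2. The values are for whole tissue, in which fewer cells of a type and less RNA per cell cannot be told apart.

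Among the 8 genes, Il15, Spon1 and Tafa2 encode secreted proteins. Interleukin-15 is presented on its receptor alpha chain and sustains natural killer and memory CD8 T cells through the receptor subunits it shares with interleukin-2. Spondin-1 is a thrombospondin-repeat protein of the extracellular matrix, and Tafa2 is a small chemokine-like protein known mainly from brain. Ptprn2 (phogrin) is a catalytically weak receptor tyrosine phosphatase of dense-core secretory vesicles. Formin-1 nucleates and elongates actin filaments, Kif5c is a heavy chain of kinesin-1, the motor that carries cargo outward along microtubules, and Rab6b is a small GTPase of Golgi transport, enriched in neurons. Bcat2 is the mitochondrial aminotransferase that takes the first step of leucine, isoleucine and valine breakdown, a step that heart and skeletal muscle carry out readily and liver little.

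In heart the 8 genes fell into 4 patterns. BPN stood alone with high Il15. BPH stood alone with high Tafa2, 1 high Kif5c probe set, low Bcat2 and Spon1 probe sets that moved in opposite directions. BPL stood alone with high Fmn1 and 1 high Ptprn2 probe set. Rab6b differed between all 3 strains. BPH and BPN differed by 1 or more on the log2 scale in 9 of the 15 probe sets, against 0.628% of all probe sets. BPL and BPN did so in 4 (0.664% of all), and BPH and BPL in 9 (0.815% of all). Arrays of the strains did not overlap in 9, 6 and 9 of the 15 (7.97%, 9.23% and 8.39% of all). These shares follow from how the genes were chosen. BPH minus BPN and BPL minus BPN share the BPN arrays, so their values are set side by side only.

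**Figure D1:**
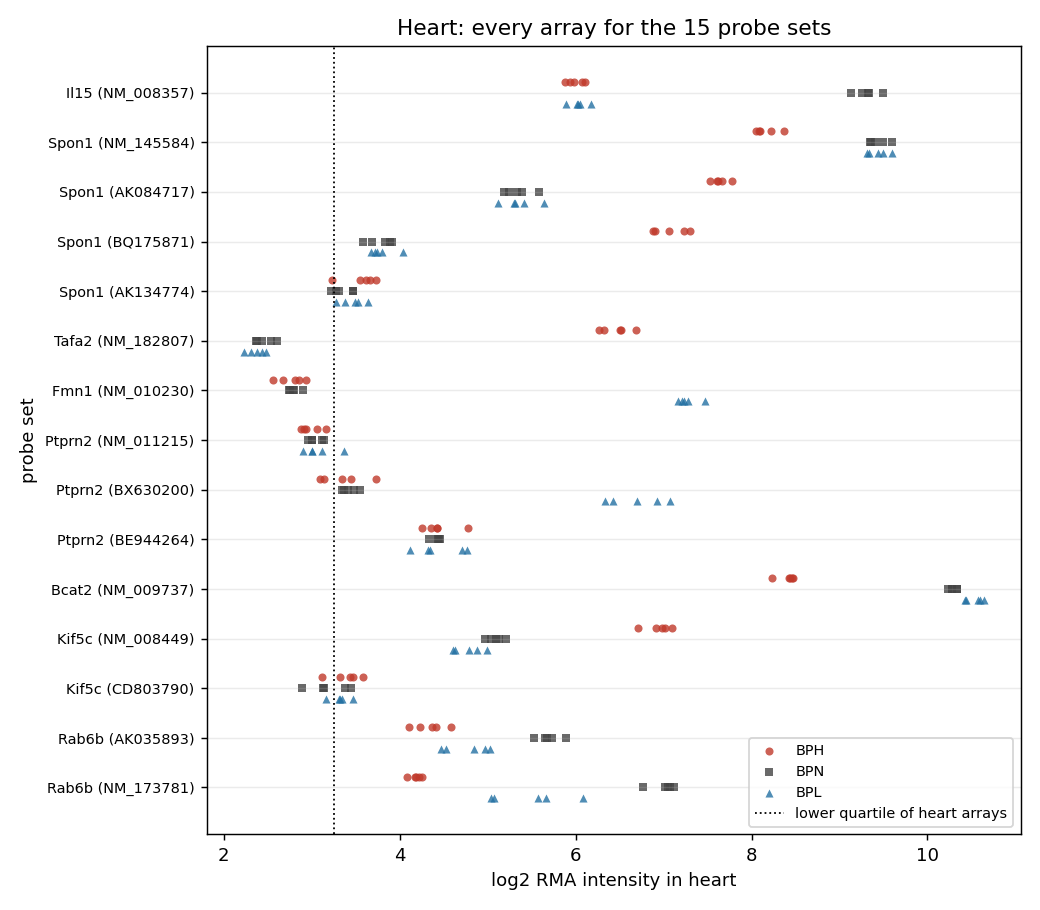
Log2 RMA intensity in each of the 15 heart arrays for the 15 probe sets of the 8 genes, with 5 points per strain and a dotted line at the mean lower quartile of the heart arrays. The BPN points of Il15 (9.13 and above), the BPH points of Tafa2 (6.26 and above) and the BPL points of Fmn1 (7.17 and above) stand clear of the other strains, while 2 of the 3 Ptprn2 probe sets show no separation.

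Of the secreted factors, Il15 (NM_008357) measured 9.33, 9.13, 9.50, 9.25 and 9.33 in the 5 BPN hearts. The BPH hearts gave 5.98, 5.93, 6.07, 6.10 and 5.88, and the BPL hearts 6.05, 6.17, 6.03, 6.02 and 5.90. BPN was high in every array, and BPH and BPL overlapped. The difference from BPN was -3.31 ± 0.07 in BPH and -3.27 ± 0.07 in BPL, or 9.94-fold and 9.67-fold, and between BPH and BPL it was -0.04 ± 0.07. Macrophage markers were low in the same strains: of 5 markers, 3 were called lower in BPH (Adgre1, C1qb and C1qc) and 5 lower in BPL. Their summed linear intensity was 2201 to 3329 in BPN, 1721 to 1952 in BPH and 1739 to 1823 in BPL, and 0 of the 5 were dim. Their part in the Il15 values was not tested.

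Spon1 gave different answers by probe set. BQ175871 measured 7.06, 7.23, 7.30, 6.88 and 6.90 in BPH, against 3.89, 3.68, 3.91, 3.59 and 3.84 in BPN and 4.03, 3.74, 3.68, 3.72 and 3.79 in BPL. AK084717 measured 7.78, 7.60, 7.66, 7.52 and 7.61 in BPH, with 5.19 to 5.59 in BPN and 5.11 to 5.64 in BPL. Both probe sets were high in every BPH heart and alike in BPN and BPL. NM_145584 went the other way, at 8.37, 8.10, 8.22, 8.08 and 8.05 in BPH against 9.35 to 9.59 in BPN and 9.32 to 9.60 in BPL. The BPH minus BPN differences were 3.29 ± 0.09 (9.81-fold), 2.29 ± 0.09 (4.88-fold) and -1.28 ± 0.08 (2.43-fold lower). The remaining probe set, AK134774, stayed between 3.22 and 3.74 in all 15 hearts, close to the lower quartile. Where on the Spon1 transcript each probe set lies was not given in the sources used here, so a single direction for Spon1 in BPH heart cannot be stated.

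Tafa2 (NM_182807) measured 6.51, 6.51, 6.69, 6.32 and 6.26 in BPH hearts. It was dim in the other strains, at 2.38, 2.37, 2.54, 2.44 and 2.60 in BPN and 2.24, 2.49, 2.43, 2.31 and 2.38 in BPL. The BPH arrays stood apart from both, by 3.99 ± 0.08 from BPN and 4.09 ± 0.08 from BPL. Differences against a low mean depend on the floor of the scale. With 16 added before log2, the heart difference from BPN became 2.27 for Tafa2 in BPH, 2.34 for Spon1 BQ175871 in BPH, 2.89 for Fmn1 in BPL, 2.16 for Ptprn2 BX630200 in BPL and -2.08 for Rab6b NM_173781 in BPH, so the folds given for BQ175871, BX630200 and NM_173781 hold only for the intensities as deposited.

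The vesicle gene Ptprn2 was separated by BX630200 alone. This probe set measured 6.43, 7.08, 6.92, 6.34 and 6.70 in BPL, 3.55, 3.42, 3.34, 3.49 and 3.37 in BPN, and 3.45, 3.34, 3.10, 3.73 and 3.14 in BPH. All BPL arrays were high, by 3.26 ± 0.13 over BPN (9.57-fold), and BPH overlapped BPN with a difference of -0.08 ± 0.13. NM_011215, which was dim in all 3 strains, differed by 0.03 ± 0.08 between BPL and BPN, and BE944264 by 0.03 ± 0.11. Across the 67 arrays, after each tissue's mean was subtracted, BX630200 correlated with them at 0.02 and 0.10.

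Of the cytoskeletal genes, Fmn1 (NM_010230) showed the widest span of heart means among the 15 probe sets. BPL hearts measured 7.20, 7.17, 7.27, 7.47 and 7.24, while BPN gave 2.74, 2.80, 2.78, 2.75 and 2.90 and BPH 2.67, 2.81, 2.56, 2.85 and 2.94. BPN and BPH were both dim and overlapped, and BPL exceeded BPN by 4.47 ± 0.08, the second largest absolute difference of that contrast among 38385 probe sets. Among 5 smooth muscle markers, 1 was called higher in BPL heart, Acta2 (1.35, adjusted p = 2.39e-08 in limma). Their summed intensity was 765 to 969 in BPL, 714 to 753 in BPN and 645 to 688 in BPH, 0 of the 5 were dim, and their part in the Fmn1 values was not tested.

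Kif5c (NM_008449) measured 6.91, 7.10, 7.02, 6.98 and 6.71 in BPH, 5.12, 5.21, 5.04, 5.10 and 4.96 in BPN, and 4.61, 4.87, 5.00, 4.63 and 4.78 in BPL. BPH lay above every array of the other strains, by 1.86 ± 0.08 over BPN (3.62-fold) and 2.17 ± 0.08 over BPL (4.49-fold), while BPN and BPL overlapped. The second Kif5c probe set, CD803790, had strain means between 3.20 and 3.39, and it was dim in BPN and BPL and differed by 0.19 ± 0.10 between BPH and BPN.

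Rab6b was ordered BPH, BPL, BPN from low to high by both probe sets. NM_173781 measured 4.18, 4.22, 4.25, 4.18 and 4.08 in BPH, 6.08, 5.67, 5.58, 5.08 and 5.04 in BPL, and 7.05, 7.12, 7.07, 6.76 and 7.01 in BPN. The 3 strains did not overlap, and the spread was widest in BPL (SD 0.436). The difference from BPN was -2.82 ± 0.15 in BPH (7.06-fold lower) and -1.51 ± 0.15 in BPL (2.85-fold lower). AK035893 gave smaller differences, -1.36 ± 0.11 and -0.93 ± 0.11, and in it BPH and BPL overlapped. Kif5c, Rab6b and Ptprn2 are prominent in neurons, and of 7 neuronal markers 1 was called higher in BPH heart (Stmn2, 0.41) and 1 lower in BPL heart (Uchl1, -1.58). The summed intensity of the 7 was 298 to 349 in BPH, 263 to 289 in BPN and 222 to 259 in BPL, and 0 were dim. Their part in these values was not tested.

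The metabolic gene Bcat2 (NM_009737) measured 8.46, 8.44, 8.47, 8.23 and 8.43 in BPH hearts. BPN hearts gave 10.28, 10.28, 10.24, 10.34 and 10.34, and BPL hearts 10.43, 10.64, 10.59, 10.43 and 10.58. No arrays of the 3 strains overlapped, with BPH low by a wide margin and BPL slightly above BPN. BPH minus BPN was -1.89 ± 0.06 (3.71-fold lower), and BPL minus BPN 0.24 ± 0.06 (1.18-fold higher).

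RefSeq promoter windows (250 bases before to 50 after an annotated start, GRCm38.p6) were matched for 6 of the 8 genes by symbol, in 8 entries. Shown are the windows of Tafa2 and Kif5c, high in BPH heart, and of Fmn1 (2 annotated starts) and Ptprn2, high in BPL heart. Each pair was chosen because it was high in the same strain, Kif5c by NM_008449 only and Ptprn2 by BX630200 only. All windows are on the + strand and come from the C57BL/6J reference, so they do not show the alleles of the 3 strains. Capitals mark the motifs, which were searched on both strands and did not overlap in these windows. The TATA box was searched as TATAAA. The second motif was the CCAAT box, by those letters alone. The GC box was searched as GGGCGG. The windows are chr10:123263826-123264125 for Tafa2, chr2:49619036-49619335 for Kif5c, chr2:113327486-113327785 and chr2:113684840-113685139 for Fmn1, and chr12:116485470-116485769 for Ptprn2.
Tafa2: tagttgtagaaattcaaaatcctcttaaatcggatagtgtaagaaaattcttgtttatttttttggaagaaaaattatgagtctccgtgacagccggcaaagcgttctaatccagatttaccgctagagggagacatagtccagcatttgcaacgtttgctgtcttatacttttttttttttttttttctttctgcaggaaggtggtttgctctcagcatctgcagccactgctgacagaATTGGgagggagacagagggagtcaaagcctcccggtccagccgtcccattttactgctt
Kif5c: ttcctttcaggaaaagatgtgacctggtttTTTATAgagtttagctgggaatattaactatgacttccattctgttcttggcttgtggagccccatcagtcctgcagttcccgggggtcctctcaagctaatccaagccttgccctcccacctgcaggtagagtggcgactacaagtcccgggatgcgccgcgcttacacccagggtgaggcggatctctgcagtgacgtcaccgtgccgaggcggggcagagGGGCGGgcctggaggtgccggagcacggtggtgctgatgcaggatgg
Fmn1, start 1: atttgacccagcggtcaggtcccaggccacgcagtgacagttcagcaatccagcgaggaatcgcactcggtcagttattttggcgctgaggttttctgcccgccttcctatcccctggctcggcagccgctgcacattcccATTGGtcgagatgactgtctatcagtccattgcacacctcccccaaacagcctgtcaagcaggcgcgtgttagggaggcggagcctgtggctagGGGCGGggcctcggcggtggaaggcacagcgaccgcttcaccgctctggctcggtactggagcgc
Fmn1, start 2: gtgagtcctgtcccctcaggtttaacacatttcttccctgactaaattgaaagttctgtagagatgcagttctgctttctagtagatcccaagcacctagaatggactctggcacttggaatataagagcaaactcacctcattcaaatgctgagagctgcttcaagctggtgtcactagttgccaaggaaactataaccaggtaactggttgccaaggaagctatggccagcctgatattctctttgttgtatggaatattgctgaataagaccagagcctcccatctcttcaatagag
Ptprn2: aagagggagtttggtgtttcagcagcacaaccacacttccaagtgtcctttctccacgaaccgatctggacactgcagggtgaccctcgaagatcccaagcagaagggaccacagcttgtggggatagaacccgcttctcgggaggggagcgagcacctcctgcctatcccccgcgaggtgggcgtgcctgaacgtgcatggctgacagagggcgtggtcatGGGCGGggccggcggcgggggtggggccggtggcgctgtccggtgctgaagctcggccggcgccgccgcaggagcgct
Of 32851 promoter windows, 13.6% hold the TATA letters, 37.4% the CCAAT letters and 35.7% the GC box letters. The TATA letters occurred in the Kif5c window on the opposite strand (TTTATA), near the upstream end and far from the start. CCAAT occurred in Tafa2 and the first Fmn1 start, in both on the opposite strand (ATTGG). The GC box occurred in Kif5c, the first Fmn1 start and Ptprn2. GC content was 41.7% for Tafa2, 58.0% for Kif5c, 62.0% and 44.0% for the 2 Fmn1 starts and 66.0% for Ptprn2, against a median of 52.7% over all windows. CpG dinucleotides numbered 8, 14, 21, 0 and 24 in the same order, with a median of 7. Tafa2 and Kif5c shared none of the 3 motifs, and the GC box stood in the Ptprn2 window and in 1 of the 2 Fmn1 windows. Which Fmn1 start the heart transcripts use was not measured.

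The other 3 tissues were not used in choosing the genes, and there the strain differences were tested with limma over all 38385 probe sets, called below an adjusted p of 0.05. In aorta 9 of the 15 probe sets were called between BPH and BPN, 3 higher and 6 lower in BPH (9.15% of all probe sets called, 4.45% higher and 4.7% lower). BPL and BPN differed in 4 (10.3% of all) and BPH and BPL in 7 (11% of all). In kidney the counts were 6 (7.05% of all), 2 (6.24%) and 6 (6.33%). In liver they were 4 (7.14%), 1 (7.47%) and 1 (5.77%). The median BPH minus BPN difference of the 15 was -0.22 in aorta, 0.03 in kidney and 0.01 in liver, beside medians within 0.01 of 0 over all probe sets.

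**Figure D2:**
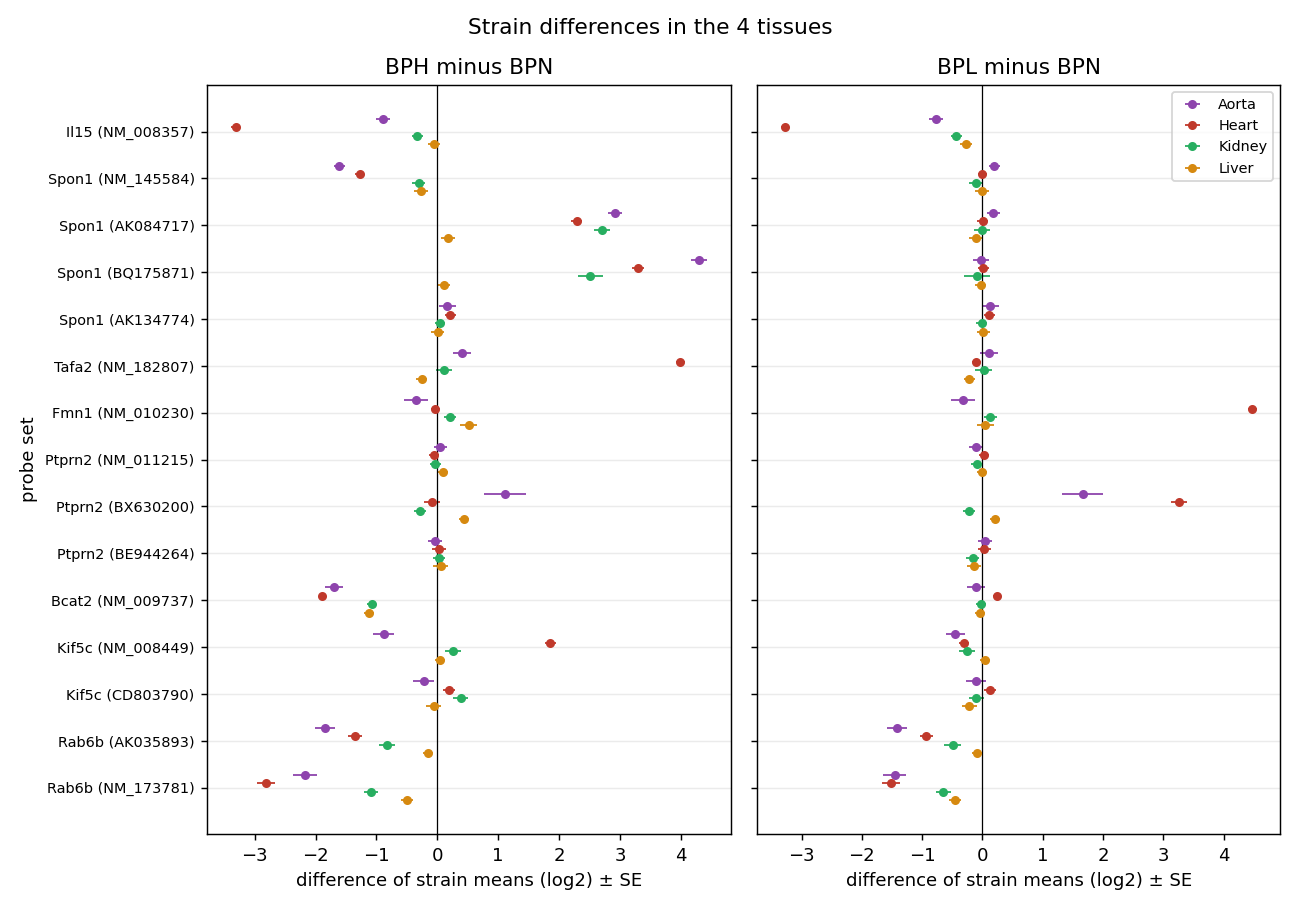
Difference of strain means (log2, x axis) with its standard error for the 15 probe sets, BPH minus BPN on the left and BPL minus BPN on the right, coloured by tissue. Bcat2 lies left of 0 in all 4 tissues for BPH, whereas the heart points of Tafa2 (3.99) and Fmn1 (4.47) stand far from those of the other tissues.

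Bcat2 was lower in BPH in every tissue. Aorta measured 8.39 to 9.28 in 9 BPH arrays (median 8.81) and 10.28 to 10.81 in 5 BPN arrays, kidney 7.83 to 8.22 and 9.04 to 9.15, and liver 5.66 to 6.20 and 7.04 to 7.23. No BPH array reached a BPN array in any tissue. Bcat2 fell by 1.70 ± 0.15 in aorta (3.25-fold, adjusted p = 4.84e-09), by 1.08 ± 0.07 in kidney (2.12-fold, adjusted p = 4.36e-08) and by 1.12 ± 0.09 in liver (2.18-fold, adjusted p = 3.23e-08). BPL minus BPN was -0.11 ± 0.15, -0.02 ± 0.08 and -0.04 ± 0.09, and none of these passed. In BPH aorta 2 of 6 cardiomyocyte markers were called higher (Tnnt2 and Ryr2), and in BPL aorta also 2 (Actc1 and Ryr2). Their summed intensity was 1231 to 5074 in BPH, 1569 to 2548 in BPL and 729 to 1164 in BPN, and their part in the Bcat2 values was not tested.

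Spon1 kept its split between probe sets in aorta. BQ175871 measured 7.72 to 8.12 in BPH (median 7.87), 3.21 to 4.14 in BPN and 3.22 to 4.07 in BPL, and AK084717 9.18 to 9.88, 6.42 to 6.94 and 6.64 to 7.13. NM_145584 measured 8.74 to 9.28 in BPH, 10.29 to 10.66 in BPN and 10.49 to 10.90 in BPL. BPH overlapped neither strain in any of the 3. In BPH, BQ175871 rose by 4.30 ± 0.13 (19.7-fold, adjusted p = 6.34e-18) and AK084717 by 2.92 ± 0.11 (7.58-fold, adjusted p = 4.42e-16), while NM_145584 fell by 1.61 ± 0.09 (3.05-fold, adjusted p = 7.35e-13). With 16 added before log2 the BQ175871 difference was 3.16 in aorta and 1.72 in kidney.

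In kidney, AK084717 rose in BPH by 2.71 ± 0.13 (6.53-fold, adjusted p = 3.73e-10) and BQ175871 by 2.51 ± 0.21 (5.71-fold, adjusted p = 4.23e-07). BQ175871 varied more there, with BPH arrays at 6.61, 5.47, 6.18, 6.72 and 7.05 against 3.63 to 4.08 in BPN. NM_145584 differed by -0.31 ± 0.10 in kidney and did not pass (adjusted p = 0.0889). In liver NM_145584 lay between 2.68 and 3.43 in the 15 arrays, AK084717 between 3.26 and 3.98 and BQ175871 between 3.17 and 3.69. The BPH minus BPN differences there were -0.26 ± 0.11, 0.17 ± 0.11 and 0.11 ± 0.10, and 0 of the 4 Spon1 probe sets were called. Over the 67 arrays, centred by tissue, BQ175871 correlated with AK084717 at 0.96 and with NM_145584 at -0.91. These arrays share the strain groups that produce the relation.

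**Figure D3:**
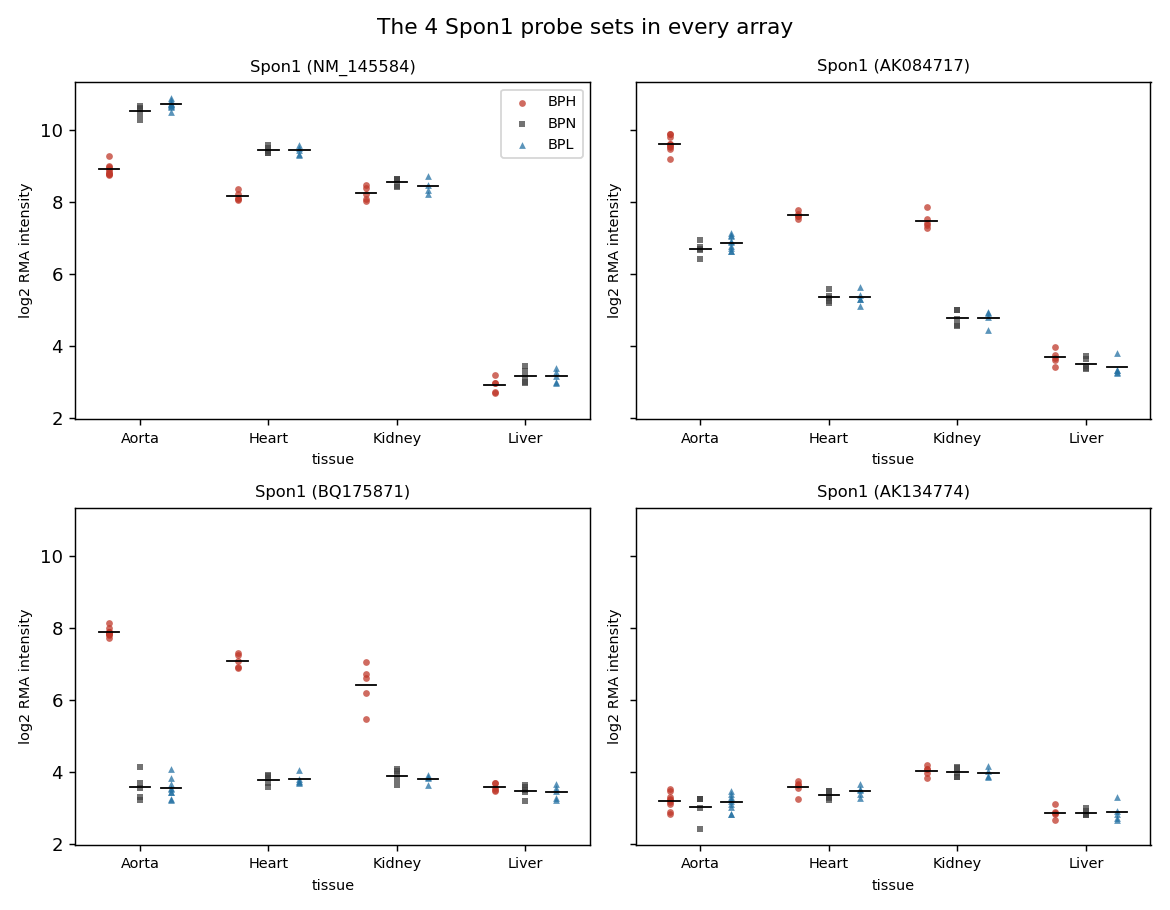
Log2 RMA intensity of the 4 Spon1 probe sets in every array, by tissue and strain, with a bar at each strain's mean. In aorta and heart BPH lies below the other strains for NM_145584 and above them for AK084717 and BQ175871, and AK134774 shows no separation in any tissue.

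Rab6b was lower in BPH in aorta and kidney by both probe sets. NM_173781 in aorta measured 6.10 to 6.56 in BPH (median 6.41), 8.32 to 8.68 in BPN and 6.51 to 8.19 in BPL (median 6.89). BPN lay above both, and BPH and BPL overlapped. The difference from BPN was -2.18 ± 0.20 in BPH (4.52-fold lower, adjusted p = 1.03e-08) and -1.46 ± 0.20 in BPL (2.74-fold lower, adjusted p = 7.05e-06). In kidney it measured 5.74, 5.85, 5.96, 5.98 and 6.01 in BPH, 7.15, 7.06, 7.14, 6.79 and 6.83 in BPN and 6.79, 6.10, 6.25 and 6.24 in BPL. BPH was lowest there too, and BPL reached the lower end of BPN. The kidney difference was -1.08 ± 0.12 in BPH (adjusted p = 8.18e-06) and -0.65 ± 0.12 in BPL (adjusted p = 0.00284), and in liver -0.50 ± 0.10 (adjusted p = 0.0029) and -0.45 ± 0.10 (adjusted p = 0.00589). In liver both calls were lost when all 12 groups shared 1 variance estimate, with adjusted p of 0.0863 and 0.135.

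AK035893 of Rab6b gave -1.85 ± 0.16 in aorta and -0.82 ± 0.14 in kidney for BPH, with adjusted p of 7.58e-09 and 0.000824. It fell by 1.42 ± 0.16 in BPL aorta (adjusted p = 6.38e-07) and gave -0.49 ± 0.15 in BPL kidney, which did not pass (adjusted p = 0.0559). It was dim in liver. Between BPH and BPL themselves, NM_173781 differed by -0.72 ± 0.17 in aorta (adjusted p = 0.00386). Its kidney difference of -0.44 ± 0.12 (adjusted p = 0.0433) lost its call without any 1 of 9 arrays, and that of AK035893 in aorta, -0.43 ± 0.14 (adjusted p = 0.0437), without any 1 of 11.

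Il15 was also lower than BPN in both other strains in aorta, by a smaller amount than in heart. Aorta arrays measured 7.26 to 7.57 in BPN, 6.40 to 6.91 in BPH (median 6.48) and 6.29 to 7.16 in BPL (median 6.61), and neither strain reached BPN. Il15 fell by 0.89 ± 0.12 in BPH (1.85-fold, adjusted p = 5.2e-06) and by 0.77 ± 0.12 in BPL (1.70-fold, adjusted p = 3.96e-05). In BPH aorta 5 of 5 T and B cell markers were called lower and 0 of 5 macrophage markers, and in BPL aorta 0 of either list. The summed T and B cell intensity was 130 to 533 in BPH, 286 to 488 in BPL and 293 to 812 in BPN, 0 of the 5 were dim, and their part in the Il15 values was not tested.

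In kidney Il15 measured 7.19, 7.20, 7.28, 7.35 and 7.09 in BPH, 7.74, 7.78, 7.50, 7.40 and 7.33 in BPN and 6.96, 7.24, 7.18 and 7.09 in BPL. BPL lay below every BPN array, and 1 BPH array reached the lowest BPN array. The BPL difference of -0.43 ± 0.10 passed (adjusted p = 0.0115). The BPH difference of -0.33 ± 0.09 passed at an adjusted p of 0.038, which reached 0.104 among the alternatives, and 7 single arrays each decided the call. In BPH kidney 3 of 5 macrophage markers were called lower (Adgre1 -0.90, C1qb -0.99 and C1qc -0.71) and 2 of 5 T and B cell markers (Cd3d -0.43 and Cd3g -0.45), and in BPL kidney 0 of either list. The summed macrophage intensity was 521 to 629 in BPH, 684 to 932 in BPL and 654 to 878 in BPN, with 0 of the 5 dim. That of T and B cell markers was 92.5 to 128 in BPH, 112 to 132 in BPL and 119 to 147 in BPN, with 1 of the 5 (Cd3g) dim. Their part in the Il15 values was not tested. In liver Il15 differed from BPN by -0.06 ± 0.10 in BPH and -0.28 ± 0.10 in BPL, and neither passed (adjusted p = 0.822 and 0.103). Macrophage markers in liver were called lower in 5 of 5 for BPH and 4 of 5 for BPL, with 0 of the 5 dim. Their summed intensity was 697 to 889 in BPH, 872 to 952 in BPL and 1080 to 1298 in BPN. Of 5 T and B cell markers 1 was called lower in BPH liver and 0 in BPL liver. The part of these markers in the liver Il15 values was not tested.

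Kif5c NM_008449 had the opposite sign in aorta. NM_008449 measured 6.50 to 7.64 in BPH aorta (median 6.83), 7.65 to 8.21 in BPN and 7.32 to 8.02 in BPL (median 7.47). BPH lay below BPN in aorta, whereas it lay above BPN in heart. NM_008449 fell by 0.88 ± 0.16 in BPH aorta (1.84-fold, adjusted p = 0.000556), and BPL differed from BPN by -0.45 ± 0.16 (adjusted p = 0.0932). BPH minus BPL was -0.44 ± 0.14 in aorta (adjusted p = 0.0425), and 13 single arrays each decided that call. The other probe set, CD803790, differed by -0.22 ± 0.17 between BPH and BPN aorta and did not pass (adjusted p = 0.523). Aorta was amplified by another protocol than heart, and the difference between these tissues was not tested. In kidney the BPH minus BPN difference was 0.26 ± 0.13 for NM_008449 (adjusted p = 0.298) and 0.38 ± 0.12 for CD803790 (adjusted p = 0.0637). Against BPL both were called higher in BPH kidney, at 0.52 ± 0.13 and 0.48 ± 0.12, with adjusted p of 0.027 and 0.0261. These calls were lost without any 1 of 5 and of 4 arrays. In liver NM_008449 differed by 0.04 ± 0.08 between BPH and BPN. In aorta 1 of 7 neuronal markers was called higher in BPH (Stmn2, 0.61) and 1 lower (Gap43, -0.62), with a summed intensity of 2222 to 3428 in BPH and 2557 to 2949 in BPN, and 2 of the 7 (Dbh and Chat) were dim. Their part in the Kif5c values was not tested.

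Ptprn2 BX630200 was higher in BPL aorta as in BPL heart. It measured 2.80 to 4.97 in BPL aorta (median 4.46), 2.74 to 5.12 in BPH (median 3.47) and 2.35 to 2.59 in BPN, which was dim. Both strains lay above BPN and overlapped each other widely. The difference from BPN was 1.67 ± 0.34 in BPL (adjusted p = 0.00135) and 1.11 ± 0.34 in BPH (adjusted p = 0.039). With 16 added before log2 these were 0.68 and 0.41. The BPH call was lost without any 1 of 10 arrays, with an adjusted p of up to 0.155. In liver BX630200 measured 3.32, 3.11, 3.36, 3.32 and 3.31 in BPH and 2.71, 3.06, 2.78, 2.71 and 2.97 in BPN. It rose there by 0.44 ± 0.08 (adjusted p = 0.0011), a call lost when all groups shared 1 variance (adjusted p = 0.509). In BPL aorta the neuronal marker Uchl1 was lower (-3.54, adjusted p = 3.27e-16 in limma) and 0 of the other neuronal markers were called, with the 7 summing to 677 to 1009 in BPL, and their part in the Ptprn2 and Rab6b values was not tested. NM_011215 and BE944264 were called in 0 comparisons of the 3 tissues, and BX630200 differed by -0.29 ± 0.10 between BPH and BPN kidney (adjusted p = 0.0938).

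Tafa2 and Fmn1 did not repeat their heart differences. Tafa2 was dim in aorta, kidney and liver in all strains, and 0 of its comparisons passed. Its largest BPH minus BPN difference outside heart was 0.40 ± 0.15 in aorta (adjusted p = 0.0988). Fmn1 was well above the lower quartile in kidney, at 6.59 to 6.82 in BPL, 6.18 to 6.80 in BPN and 6.68 to 6.94 in BPH, where the strains overlapped. BPL minus BPN was 0.13 ± 0.11 in kidney (adjusted p = 0.576) and -0.32 ± 0.20 in aorta (adjusted p = 0.403), against 4.47 in heart. Of its comparisons 1 passed, BPH minus BPN in liver, at 0.51 ± 0.14 (adjusted p = 0.0311) with a dim BPN mean, and 5 single arrays each decided that call.

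**Figure D4:**
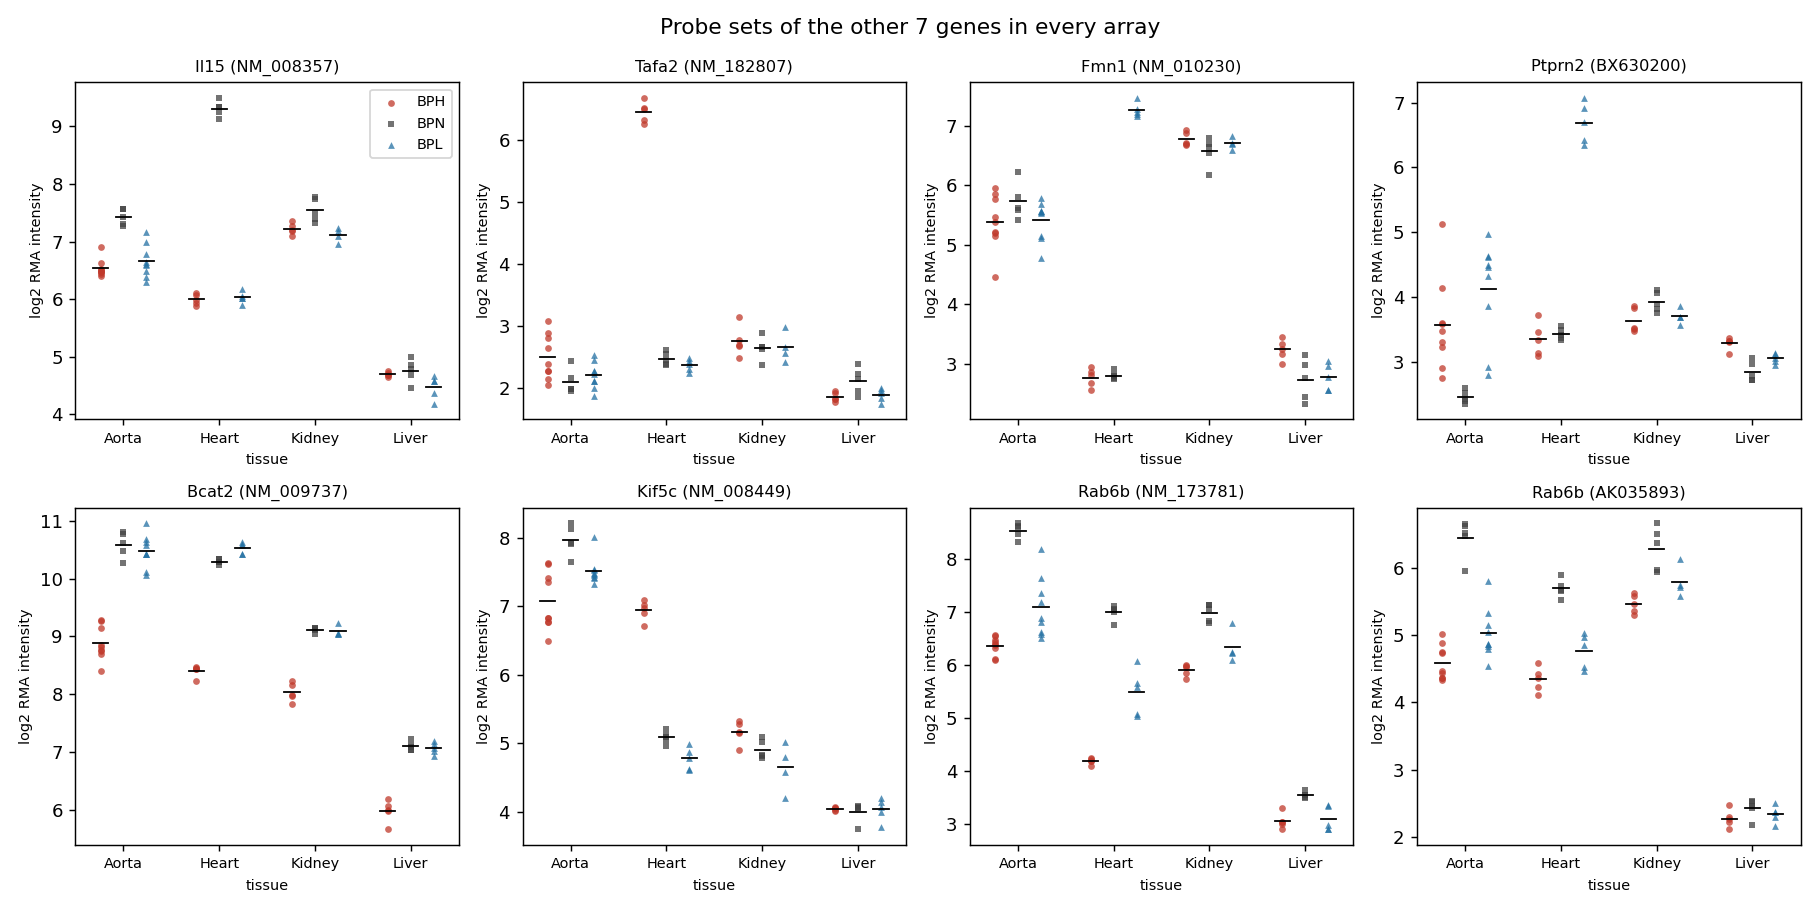
Log2 RMA intensity in every array by tissue and strain, with a bar at each strain's mean, for 8 probe sets of the 7 genes other than Spon1. Fmn1 in BPL and Tafa2 in BPH stand apart in heart only among the tissues drawn, while Bcat2 is low in BPH in all 4 tissues.

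Kidney and liver were amplified by 1 protocol and were not used in the choice, so the strain difference was compared between them with an interaction term in limma. For BPH minus BPN, 5 of the 15 probe sets differed between kidney and liver (4.2% of all probe sets). These were Spon1 AK084717 (2.53 ± 0.18, adjusted p = 1.41e-11) and BQ175871 (2.40 ± 0.24, adjusted p = 1.84e-08), Ptprn2 BX630200 (-0.73 ± 0.13, adjusted p = 0.000216), and Rab6b AK035893 (-0.67 ± 0.16, adjusted p = 0.0124) and NM_173781 (-0.59 ± 0.16, adjusted p = 0.0227), the last of which lost its call without either of 2 arrays. Rab6b AK035893 was dim in liver in all 3 strains, where a strain difference may be hidden. The same limit may hold for the 2 Spon1 probe sets. They were not dim, but their liver strain means of 3.40 to 3.68 lay below the mean array median of 3.81. BX630200 was dim in BPH kidney, and its value ran from -0.79 to -0.28 among the alternatives. The Bcat2 difference was 0.04 ± 0.11 between these tissues (adjusted p = 0.927). For BPL minus BPN 1 probe set passed (4.74% of all), Ptprn2 BX630200, at -0.43 ± 0.13 (adjusted p = 0.0496), and that call was lost without any 1 of 19 arrays.

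Genes related to each of the 8 by family or pathway were examined in heart, 83 measured genes by 1 probe set each. Of these 12 were called between BPH and BPN (8.47% of all named genes), 18 between BPL and BPN (11.3% of all) and 15 between BPH and BPL (10.4% of all). Among 20 genes of branched-chain amino acid breakdown, the pathway Bcat2 opens, 0 were called between BPH and BPN, 6 between BPL and BPN and 6 between BPH and BPL. Of those between BPL and BPN, Bckdhb (0.33), Dbt (0.22), Ppm1k (0.25), Mccc2 (0.31) and Pcca (0.28) were higher in BPL. The other, Pccb, a subunit of propionyl-CoA carboxylase, fell by 0.52 ± 0.07 (adjusted p = 7.2e-05). Between BPH and BPL, Ppm1k (-0.26), Mccc2 (-0.38), Aldh6a1 (-0.26) and Pcca (-0.30) were lower in BPH and Pccb (0.42) and Slc7a5 (0.31) higher. The median of the 20 was -0.03 for BPH minus BPN and -0.13 for BPH minus BPL, beside -1.89 and -2.13 for Bcat2 itself.

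Of 6 measured Il15 receptor and signalling genes, the receptor chain Il15ra was called lower in BPH heart (-0.24, adjusted p = 0.0283) and Il2rb, the receptor chain shared with interleukin-2, lower in BPL (-0.35, adjusted p = 0.0226). Stat3 was called higher in both, at 0.33 and 0.39. Of 7 genes of natural killer and cytotoxic cells, the chemokine Ccl5 fell by 0.84 ± 0.19 in BPH (adjusted p = 0.00946) and by 1.15 ± 0.19 in BPL (adjusted p = 0.000563). The cytotoxic granule protease Gzmb fell by 0.57 ± 0.15 in BPL (adjusted p = 0.018), while another granule protease, Gzma, rose by 0.44 in BPH (adjusted p = 0.0454). The median of the 7 was 0.00 for BPH and -0.35 for BPL. Between BPH and BPL, Il15ra was lower in BPH (-0.25) and Gzma higher (0.79), the 1 call of each list.

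Of the other lists, Tafa5 was the 1 called member of 4 other TAFA genes and rose in both strains, by 0.68 ± 0.07 in BPH (adjusted p = 1.32e-06) and 0.27 ± 0.07 in BPL (adjusted p = 0.0129). Of 8 genes of the spondin list, 1 was called higher and 1 lower in each of BPH and BPL against BPN. Thbs1, which like Spon1 carries thrombospondin repeats, fell by 0.70 ± 0.12 in BPH (adjusted p = 0.000856), with -0.57 ± 0.12 in BPL (adjusted p = 0.00481). The gene of the matrix protein reelin, Reln, rose by 0.44 in BPH (adjusted p = 0.0106), and the other thrombospondin of the list, Thbs2, rose by 0.39 in BPL (adjusted p = 0.00768). Among 9 measured kinesin genes the light chain Klc1, a partner of Kif5c in kinesin-1, fell by 0.52 ± 0.06 in BPH (adjusted p = 2.49e-05), and Kif1b was lower in BPL (-0.47). Of 10 formins 1 was called between BPH and BPN, Fhod3, known from the cardiac sarcomere (0.26), and 0 between BPL and BPN. Between BPH and BPL 3 were called higher in BPH, Daam1 (0.25), Diaph2 (0.21) and Fhod3 (0.28), while Fmn1 differed by -4.51. Dense-core vesicle genes gave 2 of 11 calls for BPH (Ica1 0.32 and Cpe -0.23) and 1 for BPL (Cpe -0.19), and partners of Rab6b 1 of 8 (Golga5 0.34) and 3 of 8 (Golga5 0.21, Rab3a 0.26 and Bicd2 -0.26). Between BPH and BPL these 2 lists gave 0 calls, and the remaining calls were Tafa5 (0.41), Reln (0.65), Klc1 (-0.42) and Kif1b (0.64).

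The 3 nearest named genes on each side of every member, by the RefSeq gene order, made 48 genes with 66 probe sets. In heart 11 of the 66 were called between BPH and BPN (16.7%, against 8.41% of all named probe sets), 6 between BPL and BPN (9.09% against 11.3%) and 6 between BPH and BPL (9.09% against 10.3%). Near Il15 on chromosome 8, Tbc1d9 was lower in both BPH (-0.67 ± 0.09, adjusted p = 4.32e-05) and BPL (-0.63 ± 0.09, adjusted p = 7.3e-05), as was 1 of 2 Usp38 probe sets (AK014740, -0.32 and -0.47), while CA980390 was not called (-0.14 and -0.19). Of 4 probe sets of Inpp4b, the gene next to Il15, AK053554 was called higher in BPH (0.31, adjusted p = 0.00415) and AK141502 lower in BPL (-0.20, adjusted p = 0.0468), and 2 were called in neither. Rnf150 was called lower in BPH by AK030860 (-0.25, adjusted p = 0.0345) and not by NM_177378 (-0.01). Near Tafa2 on chromosome 10, Ppm1h fell in BPH by 2 of 3 probe sets, AK051434 (-0.75 ± 0.10, adjusted p = 9.03e-05) and NM_176919 (-0.44), while AK088561 gave 0.00 and did not pass. The monocarboxylate transporter Slc16a7 rose by 1.10 ± 0.12 in BPL (adjusted p = 6.28e-06). Mon2 was called lower in BPH by both its probe sets (-0.20 and -0.31), and Usp15 lower in BPL by NM_027604 alone (-0.27, adjusted p = 0.00145). Beside Spon1 on chromosome 7, the small GTPase Rras2 fell by 0.52 ± 0.07 in BPH (adjusted p = 3.57e-05) and the coatomer subunit Copb1 by 0.36 ± 0.06 (adjusted p = 0.000984). Psma1 was called lower in BPL (-0.24, adjusted p = 0.0274). Around Fmn1, Ptprn2, Bcat2 and Kif5c 0 neighbours were called in heart in any contrast, with the members themselves 1.86 to 4.47 from BPN, and 1 was called near Rab6b, Amotl2 (0.27 in BPH). Outside heart, 11 of the 66 neighbouring probe sets were called for BPH minus BPN in aorta (16.7%, against 11.1% of all named probe sets), 8 in kidney (12.1% against 8.58%) and 10 in liver (15.2% against 8.71%). The other contrasts are set against all probe sets, named or not. For BPL minus BPN the counts were 6 in aorta (9.09% against 10.3%), 3 in kidney (4.5% against 6.24%) and 7 in liver (10.6% against 7.47%). BPH minus BPL gave 11 (16.7% against 11%), 9 (13.6% against 6.33%) and 6 (9.09% against 5.77%).

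**Figure D5:**
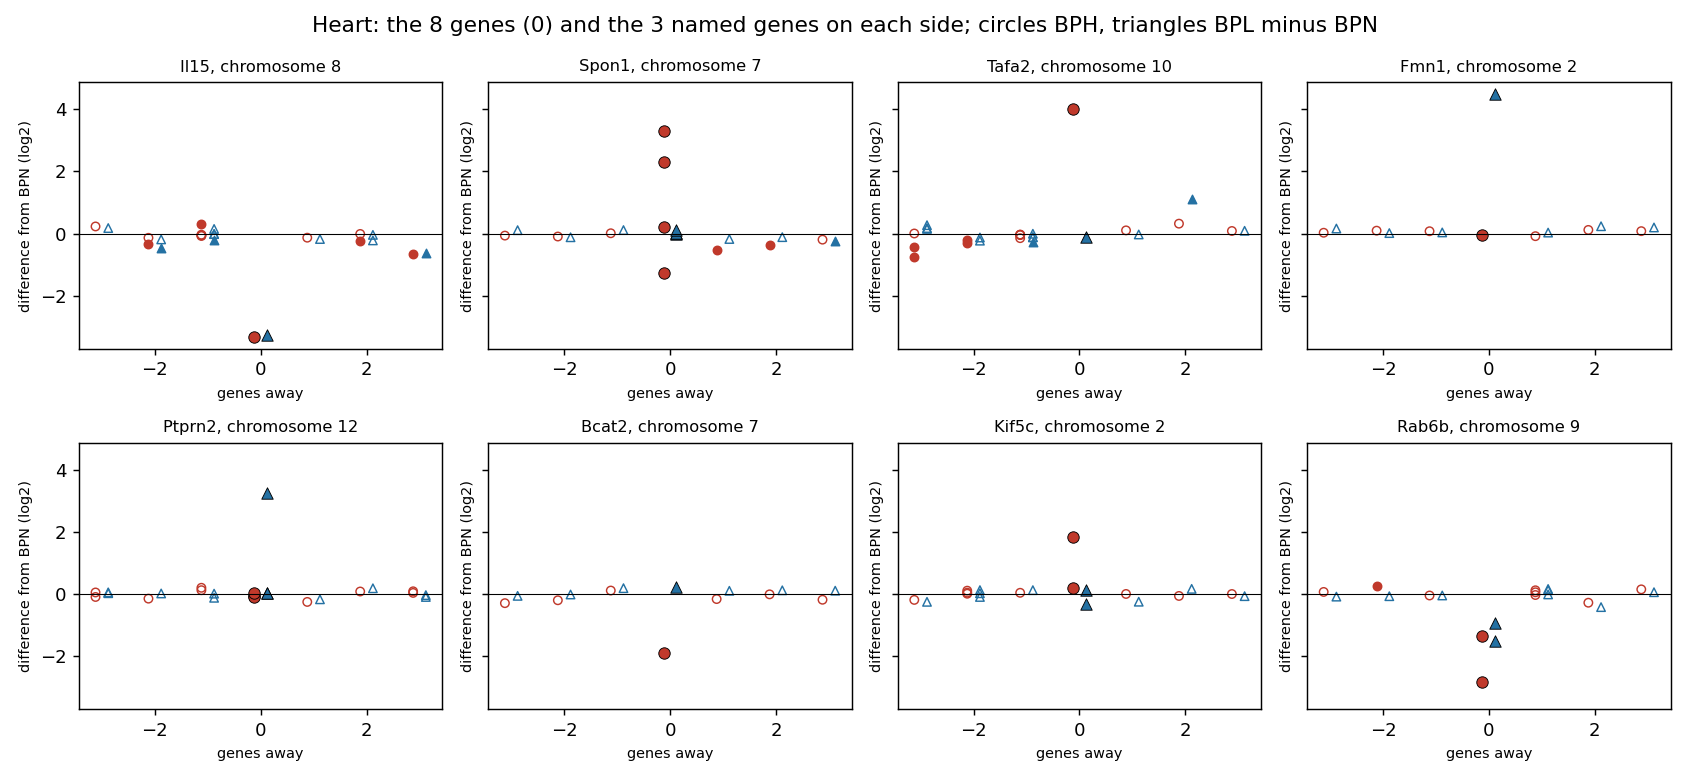
Heart difference from BPN (log2) for the 8 genes at position 0 and for the probe sets of the 3 named genes on each side, with circles for BPH and triangles for BPL. Filled neighbour symbols passed an adjusted p of 0.05 and open ones did not, and the members, drawn with black edges, were not tested. No neighbour drawn lies as far from 0 as the larger difference of the member beside it.

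The named genes most like each leading probe set were found by Pearson r over the 67 arrays after each tissue's mean was subtracted. The arrays share strain and tissue groups, so the r values are a description. Il15 was most like Parp3 (0.88) and Ctsh (0.87), and Spon1 BQ175871 most like Plppr1 (0.95) and Thumpd1 (0.94). Hsd17b7, an enzyme of cholesterol synthesis, was the nearest gene of both Tafa2 (0.91) and Kif5c (0.85), followed by Mindy4b-ps (0.85) and Fgf7 (0.81). Fmn1 was most like Acta2 (0.86) and Efcab2 (0.86), and Ptprn2 BX630200 most like Plet1os (0.85) and Pts (0.80). Bcat2 was most like Cep83os (0.92) and Smim14 (0.91), and Rab6b most like Art4 (0.83) and Il6st (0.81). In the 15 heart arrays alone these 16 pairs correlated at 0.83 to 0.996, the lowest being Rab6b with Il6st.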

How the data were processed

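RNA of aorta, heart, kidney and liver from 3 mouse strains was measured on 67 Merck/Affymetrix custom arrays. Per the labels' protocols, a NuGEN Ovation kit amplified the aorta samples, and RNA of the other tissues was amplified by in vitro transcription. The deposited value is an intensity per probe set, and the submitters' processing notes name RMA as the authors' normalisation. RMA equalises array distributions, which hides differences in total RNA. The intensity ran from 1.8 to 22648, so it was read as linear and its log2 used with nothing added (pseudocount 0). Of 38385 probe sets 24478 had 1 symbol, 65 several and 13842 none in the platform annotation.

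A mean per strain was fitted tissue by tissue in limma 3.58.1 under R 4.3.3 (lmFit, eBayes), with Benjamini-Hochberg adjustment over all probe sets and calls below 0.05. The procedure was tested on simulated data. Kidney and liver were also fitted together for the interaction. Plates and scan dates were not given, so no batch could be tested, and the number of arrays limits precision. The members, gene lists and tests were chosen with earlier results of these data known. All 15 member probe sets are named. Of related genes in heart, called ones were eligible, those past 0.5 log2 by rule and the smaller ones after their values were seen. At most 4 called neighbours per member and the 2 most alike genes per leading probe set (widest span of heart strain means) are named. Related genes with no probe set of that name were left out. Alternatives were quantile normalisation, median centring, a pseudocount of 16, leaving out dim probe sets, a trended robust prior, a joint fit of 12 groups, a replicate block and each array left out in turn.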

Additional observations from a re-analysis of the deposited data

Results flagged for a closer look

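Among 180 groups of arrays (15 probe sets in 12 groups of tissue and strain), 13 held an array set apart from its group by Dixon's test at 95%, where chance marks about 1 group in 20. In heart the 1 such value was Bcat2 in BPH array 4, at 8.23 with the next array at 8.43. In aorta they were Il15 in BPH array 7 (6.91), Kif5c NM_008449 in BPL array 29 (8.02), Rab6b AK035893 in BPN array 12 (5.96) and Spon1 NM_145584 in BPH array 2 (9.28). In kidney they were Bcat2 in BPL array 1 (9.23), Kif5c CD803790 in BPL array 2 (3.10) and Ptprn2 BE944264 in BPN array 5 (5.32). In liver they were Kif5c NM_008449 (3.74) and Rab6b AK035893 (2.18) in BPN array 3, Ptprn2 BX630200 in BPH array 2 (3.11), Ptprn2 NM_011215 in BPH array 3 (3.11) and Spon1 AK084717 in BPL array 2 (3.81).

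The strain difference itself differed between kidney and liver by the interaction test in 6 cases. For BPH minus BPN the kidney value minus the liver value was 2.53 for Spon1 AK084717, 2.40 for Spon1 BQ175871, -0.73 for Ptprn2 BX630200, -0.67 for Rab6b AK035893 and -0.59 for Rab6b NM_173781. For BPL minus BPN it was -0.43 for Ptprn2 BX630200. Rab6b AK035893 was dim in liver, and Ptprn2 BX630200 was dim in BPH kidney. The 2 Spon1 probe sets had liver strain means of 3.40 to 3.68, below the mean array median of 3.81.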

How the results depend on the processing

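Of 46 calls on member probe sets in aorta, kidney, liver and between kidney and liver, 33 passed under every alternative. No direction turned in a comparison called as reported or under the alternative, or in a heart difference of 1 or more. Turns of smaller heart differences and of uncalled comparisons were not counted. In the joint fit of 12 groups the liver count fell to 1 for BPH minus BPN and to 0 for BPL minus BPN. The single kidney against liver call for BPL minus BPN became 0 with median centring, the trended robust prior and the replicate block. Leaving out 1 array gave 3 to 6 calls in kidney for BPH minus BPL (3 without BPH 1 or BPH 5). It gave 1 to 3 in liver for BPL minus BPN (3 without BPN 2), 1 to 2 for BPH minus BPL (2 without BPL 1, BPL 2, BPN 2 or BPN 4), and 0 to 1 for BPL minus BPN between kidney and liver.

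The calls that single arrays decided were those of Il15 in kidney for BPH minus BPN (BPH 1, 2, 3 and 5, BPN 1, 2 and 3) and Fmn1 in liver (BPH 1, 4 and 5, BPN 1 and 2). They were also Ptprn2 BX630200 in aorta for BPH minus BPN (BPH 3, 5, 6, 8 and 9, BPN 11 to 15). For BPH minus BPL they were, in aorta, Kif5c NM_008449 (BPH 2, 7, 8, 9 and 10, every BPL array but 25) and Rab6b AK035893 (BPH 2, 3, 6, 7 and 9, BPL 21, 22, 24 and 25, BPN 11 and 15). In kidney they were Kif5c NM_008449 (BPH 1, 2 and 5, BPL 4 and 5), Kif5c CD803790 (BPH 1, 3 and 5, BPL 2) and Rab6b NM_173781 (every BPH array, BPL 1, 4 and 5, BPN 3). Between kidney and liver, Rab6b NM_173781 reached an adjusted p of 0.0547 without kidney BPN 1 or liver BPH 4, and Ptprn2 BX630200 for BPL minus BPN lost its call without any 1 of 19 arrays (0.121 at its highest). In kidney these were BPH 2 and 5, BPL 2, 4 and 5 and BPN 2, 3 and 5, and in liver BPH 1, 3, 4 and 5, BPL 2, 3, 4 and 5 and BPN 1, 3 and 4. The highest adjusted p in these comparisons was 0.104 for Il15, 0.0926 for Fmn1, 0.155 for Ptprn2, 0.0917 and 0.0872 in aorta, and 0.0784, 0.0867 and 0.258 in kidney. The cause was not tested. Calls were gained without single arrays for Tafa2 (aorta BPH 10, liver BPN 5), Kif5c NM_008449 (aorta BPL 29) and CD803790 (kidney BPH 4 or BPL 2), Ptprn2 BX630200 (kidney BPH 1, liver BPN 2), Il15 (liver BPN 2), Fmn1 (liver BPL 1, BPN 2 or BPN 4), Spon1 AK084717 (liver BPL 2) and NM_145584 (kidney BPH 5), and Rab6b AK035893 (kidney BPL 1, BPN 2 or BPN 5).

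Pairing by array number was examined after the mean of each group of tissue and strain was subtracted from every probe set. Same-numbered arrays of different strains then correlated at -0.112 to 0.094 in heart, kidney and liver, as the mean r of each number. Same-numbered kidney and liver arrays of 1 strain correlated at -0.056 to 0.206, with 5 of 14 over 0.1. Unlike-numbered arrays were not set beside them, so these values cannot decide whether the numbers pair samples. The main fits took the arrays as independent. With the replicate block, Il15 (BPH minus BPN) and Kif5c CD803790 and Rab6b NM_173781 (BPH minus BPL) lost their kidney calls. A pseudocount of 16 moved 19 heart differences by more than the SD between replicates, such as Ptprn2 BX630200 in BPL from 3.26 to 2.16. It turned none of 1 or more. Dim probe sets limit what Tafa2, the low Fmn1 means in heart and Ptprn2 NM_011215 can show.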

Other observations

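In liver Fgf21, the hormone gene next to Bcat2, fell by 0.94 ± 0.17 in BPH (adjusted p = 0.00105), and 0610005C13Rik on the other side rose by 1.06 ± 0.09 (adjusted p = 8.04e-08). Izumo1, the third named gene from Bcat2 and known from sperm, rose by 0.89 ± 0.21 in BPH aorta (adjusted p = 0.00602). Uchl1, a ubiquitin hydrolase used as a neuronal marker, was lower in BPL than in BPN in aorta (-3.54), heart (-1.58) and kidney (-1.74), with adjusted p of 3.27e-16, 3.21e-09 and 2.89e-07 in limma. It was dim in liver. These genes were singled out after their values were seen.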
